A study of Homo sapiens with 6 samples.

Results

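EHF and 9 other transcription factors of the ETS family, ELF3, ELF1, ELF5, ETS1, ETS2, ETV4, ETV5, ETV1 and ELK3, were followed in OVCAR3 cells, an established line from a human ovarian cancer. The 10 genes were taken by symbol from 27104 genes in the deposited tables. They were chosen by the higher FPKM of EHF in this very comparison, so the values of the 10 genes between the groups are a description and carry no p-value. The libraries came from cells at passages 20 to 25 that had been given a DAB2IP overexpressing vector (labelled DAB2IP O/E, 3 libraries) or an empty vector (3 libraries). DAB2IP encodes a scaffold with a domain that switches off Ras proteins. Expression was given as FPKM, fragments scaled to gene length and library size, which allows levels of different genes to be set side by side. The labels do not name the DAB2IP construct, the promoter or the time after transfection, nor whether the 3 cultures of a group were otherwise separate, so tests measure the spread between these libraries only.

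The measured DAB2IP level went against the label. DAB2IP was at 5.74, 5.02 and 5.73 FPKM in the libraries labelled DAB2IP O/E, against 7.49, 7.76 and 8.01 FPKM in the empty vector libraries, with no overlap. Every direction below is therefore that of libraries with the lower DAB2IP FPKM. Whether the group labels are exchanged, or transcripts of the vector were left uncounted, was not tested, so which treatment the higher EHF belongs to rests on the labels alone. Whole reads recovered from the FPKM numbered 24743563 to 35434533 per library labelled DAB2IP O/E and 20445867 to 28116259 per empty vector library. All 10 markers of ovarian carcinoma, among them PAX8, WT1, MUC16 and EPCAM, were expressed at a mean of at least 1 FPKM. The extraction label speaks of adipocytes, yet the 5 adipocyte markers with a row summed to 0.716 to 0.899 FPKM in the libraries labelled DAB2IP O/E and to 0.758 to 0.891 FPKM with empty vector. The other 4 were not analysed here.

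ETS factors share a DNA-binding domain that reads a GGAA core, and differ in their other domains and in the tissues that make them. EHF, ELF3 and ELF5 form the epithelium-specific branch. ETS1, ETS2, the PEA3 branch (ETV1, ETV4, ETV5) and the ternary complex factor ELK3 receive signals from the Ras-ERK kinase cascade, either by phosphorylation or through their own transcription. Some members, such as ERF, ETV3 and ETV6, repress transcription.

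The promoters of the epithelium-specific branch are shown because these related genes stood at very different levels here: EHF at a level that differed between the groups, ELF3 highest of the 10 in both groups and ELF5 near 0. Each stretch runs from 250 bases before to 50 after a RefSeq start site (GRCh38.p14), is written along the gene's own strand, and has every GGAA, or TTCC for the opposite strand, in capitals. The EHF stretch is chr11:34624007-34624306 on the plus strand, and its start site at 34624257 lies inside the gene as the files give it. The ELF3 stretch is chr1:202010337-202010636 on the plus strand, and the ELF5 stretch is chr11:34511675-34511974 on the minus strand. Their start sites, at 202010587 and 34511724, likewise lie inside the ELF3 and ELF5 genes.
EHF: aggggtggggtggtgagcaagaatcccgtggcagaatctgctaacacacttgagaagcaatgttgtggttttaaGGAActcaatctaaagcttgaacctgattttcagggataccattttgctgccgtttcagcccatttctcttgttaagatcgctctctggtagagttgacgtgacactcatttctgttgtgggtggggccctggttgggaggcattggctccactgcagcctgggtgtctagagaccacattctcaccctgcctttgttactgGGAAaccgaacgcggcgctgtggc
ELF3: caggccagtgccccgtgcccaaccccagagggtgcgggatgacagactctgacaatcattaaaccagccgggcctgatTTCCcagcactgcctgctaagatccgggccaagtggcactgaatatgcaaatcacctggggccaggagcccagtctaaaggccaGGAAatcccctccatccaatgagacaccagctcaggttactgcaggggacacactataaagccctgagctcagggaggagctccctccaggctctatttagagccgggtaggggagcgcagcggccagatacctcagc
ELF5: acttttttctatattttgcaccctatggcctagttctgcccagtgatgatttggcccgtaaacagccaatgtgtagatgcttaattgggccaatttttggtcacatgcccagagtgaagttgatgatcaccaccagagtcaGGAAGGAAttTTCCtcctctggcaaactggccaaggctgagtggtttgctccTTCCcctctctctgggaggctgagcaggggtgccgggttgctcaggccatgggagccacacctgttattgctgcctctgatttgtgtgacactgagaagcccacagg
The EHF stretch held 2 GGAA cores over both strands, the ELF3 stretch 2 and the ELF5 stretch 4, where 2 of the ELF5 cores follow each other directly. Over both strands, 95.4% of 34943 promoters of this length held at least 1 such core, with a mean of 3.51 per promoter. The longer form CCGGAAG, which contains the core, was in 10.2% of promoters on either strand and in none of these stretches. The TATA box TATAAA, in 11.6% of promoters on either strand, was found in the ELF3 stretch only among these. A second EHF entry of RefSeq, on chr11:34632316-34632615, held no GGAA core. ETS1, ETV4 and ETV5 had no entry in the table.

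EHF, an epithelial ETS factor also called ESE-3, was at 21.3, 26.2 and 24.6 FPKM in the libraries labelled DAB2IP O/E, against 6.66, 6.08 and 6.43 FPKM with empty vector. All values of the first group lay far above those of the second. The means were 24.0 ± 2.51 and 6.39 ± 0.295 FPKM (SD, n = 3 each), a ratio of 3.76, and the log2 change on the log2(FPKM + 1) scale was 1.76 (SE 0.08). The counts behind these values were 3358, 3323 and 2714 reads in the libraries labelled DAB2IP O/E, against 583, 588 and 800 reads. Among the 27104 genes the EHF mean stood at percentile 92.1 in the libraries labelled DAB2IP O/E and at percentile 74.3 with empty vector. The test covered the 14761 genes that averaged 1 FPKM or more, and 5 of them had a larger log2 change upward. The gene (ENSG00000135373.12) spans chromosome 11 positions 34621093 to 34661057 in GRCh38, plus strand. None of its exon bases are shared with another annotated gene, and none of the 50-base stretches of its transcripts occur in transcripts of another gene (GENCODE 29), ETS paralogues included. In RNA of whole cultures, more cells with EHF transcripts and more EHF transcripts per cell cannot be told apart.

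ELF3, or ESE-1, the branch member best known from intestinal and other simple epithelia, was at 42.8, 44.8 and 46.0 FPKM in the libraries labelled DAB2IP O/E, against 48.5, 46.3 and 47.9 FPKM with empty vector. The groups did not overlap, but their nearest values, 46.0 and 46.3 FPKM, almost touched. The log2 change was −0.09 (SE 0.05) and did not pass the test over all genes. ELF3 (ENSG00000163435.15) spans chromosome 1 positions 202007945 to 202017188, plus strand. ELF3-AS1 and AL691482.3 cover 18.5% of its exon bases, so part of its reads is uncertain. The ratio of ELF3 to EHF FPKM was 2.01, 1.71 and 1.87 for the libraries labelled DAB2IP O/E and 7.29, 7.62 and 7.44 with empty vector. ELF3 thus stayed the more abundant of both in every library, by a much narrower margin where EHF was high.

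ELF5, or ESE-2, known from mammary alveolar and placental cells, lies upstream of EHF on chromosome 11, from 34478793 to 34513805 on the minus strand, 107 kilobases from the start of EHF. ELF5 (ENSG00000135374.9) had 6, 0 and 1 reads in the libraries labelled DAB2IP O/E and 0, 0 and 3 reads with empty vector. The summed rates had a ratio of 1.85 (exact 95% counting interval 0.42 to 11.1), so no difference was detectable at this depth. Such intervals cover counting error only.

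ELF1, a widely expressed factor best studied in lymphoid cells, was at 6.61, 7.68 and 6.84 FPKM in the libraries labelled DAB2IP O/E, against 7.01, 6.90 and 6.45 FPKM with empty vector. The gene (ENSG00000120690.15) spans chromosome 13 positions 40932028 to 41061440, minus strand. The groups overlapped, and the log2 change of 0.05 (SE 0.07) turned to −0.01 without library 2 of those labelled DAB2IP O/E.

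ETS1, a founding member associated with lymphoid, endothelial and invasive tumour cells, was at 5.34, 4.94 and 4.97 FPKM in the libraries labelled DAB2IP O/E, against 8.59, 7.11 and 6.69 FPKM with empty vector. The groups did not overlap, and the empty vector values spread more widely, with the first of them highest. The means were 5.08 ± 0.221 and 7.46 ± 0.995 FPKM (SD, n = 3 each), and the log2 change was −0.47 (SE 0.09). ETS1 (ENSG00000134954.14) also lies on chromosome 11, on the minus strand from 128458761 to 128587558, far from EHF. Its paralogue ETS2 was at 8.96, 7.75 and 8.19 FPKM in the libraries labelled DAB2IP O/E, against 8.31, 7.48 and 7.16 FPKM with empty vector. The ETS2 groups overlapped, with a log2 change of 0.10 (SE 0.07). ETS2 (ENSG00000157557.11) spans chromosome 21 positions 38805307 to 38824955, plus strand.

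The PEA3 factors are transcribed in response to FGF and ERK signalling and are repressed by capicua, the product of CIC. ETV4 was at 3.81, 2.99 and 3.03 FPKM in the libraries labelled DAB2IP O/E, against 3.49, 2.48 and 2.60 FPKM with empty vector. ETV5 was at 0.882, 0.746 and 0.650 FPKM, against 0.829, 0.414 and 0.474 FPKM with empty vector, below the level set for testing. The summed read rates of ETV5 had a ratio of 1.41 (exact 95% counting interval 1.20 to 1.67), which leaves out the spread between libraries. FPKM overlapped between the groups for ETV4 and ETV5, and in both genes the first library of each group was the highest of its group. ETV4 had a log2 change of 0.15 (SE 0.12). ETV4 (ENSG00000175832.12) spans chromosome 17 positions 43527844 to 43579620 and ETV5 (ENSG00000244405.7) chromosome 3 positions 186046308 to 186110318, both on the minus strand. The other PEA3 gene, ETV1 (ENSG00000006468.13; chromosome 7 positions 13891228 to 13991425, minus strand), was almost silent, with 23, 12 and 21 reads in the libraries labelled DAB2IP O/E against 1, 0 and 0 reads with empty vector. The summed rates of ETV1 had a ratio of 44.4 (exact 95% counting interval 7.65 to 1785). At 0.0665, 0.0432 and 0.0867 FPKM in the libraries labelled DAB2IP O/E it nevertheless remained far below ETV4 in level.

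ELK3, also called Net, pairs with serum response factor and represses its targets until phosphorylated by ERK. It was at 6.44, 7.03 and 7.23 FPKM in the libraries labelled DAB2IP O/E, against 7.18, 7.37 and 7.45 FPKM with empty vector. The highest value of the first group lay within the second, and the log2 change was −0.08 (SE 0.06). ELK3 (ENSG00000111145.7) spans chromosome 12 positions 96194382 to 96269835, plus strand.

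**Figure D1:**
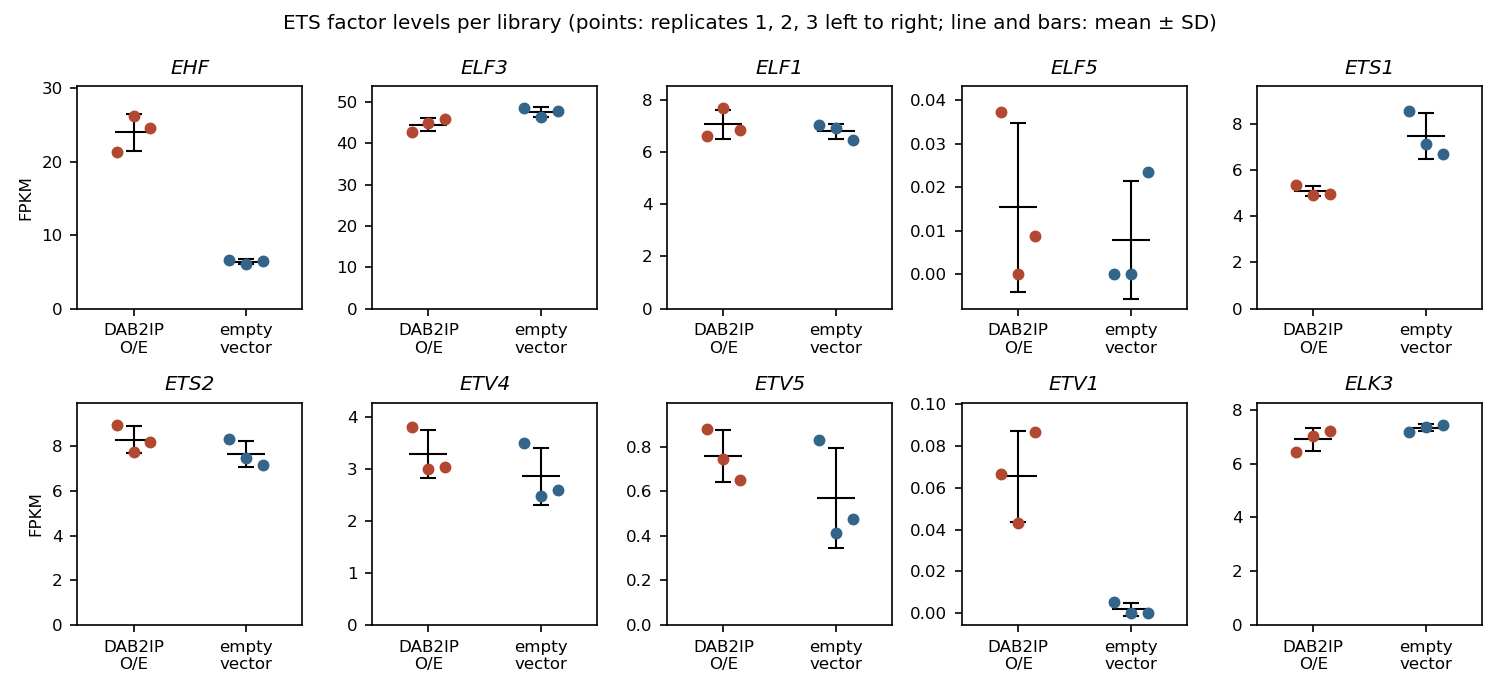
FPKM of the 10 ETS genes in each library, with the groups labelled DAB2IP O/E (left, red) and empty vector (right, blue); points are libraries, and lines and bars the mean ± SD of 3. EHF separates at 21.3 to 26.2 against 6.08 to 6.66 FPKM, ETS1 lies lower in the left group, and ELF5 and ETV1 sit near 0.

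Of the 10 genes, 7 reached the mean of 1 FPKM needed for testing, and ETV5, ETV1 and ELF5 did not. With limma over all genes and a Benjamini-Hochberg adjusted p under 0.05, 1 of the 7 (EHF) was called higher, 1 (ETS1) lower, and 5 did not pass. The background over all 14761 genes was 18.5% called, 9.29% of genes higher and 9.17% lower. With the replicate number as a block the same counts, 1 higher and 1 lower, stood beside 16.2% of all genes called, 8.23% higher and 7.98% lower. The choice of the genes rested on this comparison, so nothing is read from these counts. Without library 3 of those labelled DAB2IP O/E the ETS1 call was lost, at a log2 change of −0.46, and 1 of the 7 was called. In 3 of the 7 genes (EHF, ELF3 and ETS1) the groups did not overlap, as in 40.4% of all genes tested. The authors' deposited table gave an adjusted p-value for 9 of the 10 and called EHF and ETV1 higher and ETS1 lower, where 19% of all its genes were called. The order of mean levels among libraries labelled DAB2IP O/E was ELF3, EHF, ETS2, ELF1, ELK3, ETS1, ETV4, ETV5, ETV1 and ELF5, and neighbours overlapped only between ELF1 and ELK3. With empty vector the order was ELF3, ETS2, ETS1, ELK3, ELF1, EHF, ETV4, ETV5, ELF5 and ETV1. There ETS2 overlapped ETS1, ETS1 overlapped ELK3, ELF1 overlapped EHF and ELF5 overlapped ETV1. EHF was thus second in the libraries labelled DAB2IP O/E and sixth with empty vector.

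The human genome encodes 28 ETS factors, and 15 of the other 18 had a row in the tables. FEV, FLI1 and SPIC were not analysed here. The summed FPKM of the 25 genes was 152.6, 161.0 and 161.3 for the libraries labelled DAB2IP O/E and 157.3, 151.3 and 148.5 with empty vector, which overlap. EHF made up 14.0%, 16.3% and 15.2% of that sum in the libraries labelled DAB2IP O/E and 4.23%, 4.02% and 4.33% with empty vector. ELF3 held the largest share, 28.2 ± 0.347% and 31.2 ± 0.875% (SD, n = 3 each). Without EHF, the other 24 genes summed to 131.3 to 136.7 FPKM in the libraries labelled DAB2IP O/E and to 142.1 to 150.7 FPKM with empty vector, so the rest of the family was lower in sum while EHF was higher. ETS1 made up 3.22 ± 0.245% of the sum in the libraries labelled DAB2IP O/E and 4.89 ± 0.503% with empty vector.

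**Figure D2:**
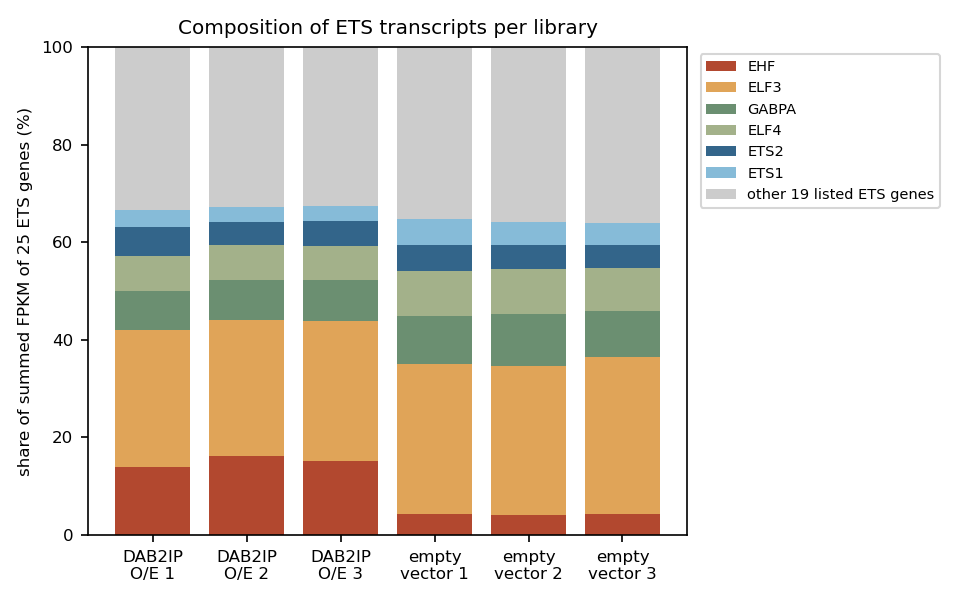
Share of the summed FPKM of 25 ETS genes in each library, in percent; bars are single libraries, the 3 labelled DAB2IP O/E on the left and the 3 with empty vector on the right. The EHF part is 14.0% to 16.3% on the left and 4.02% to 4.33% on the right, below a large ELF3 part in each bar.

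Of the 15 other ETS genes, 9 were tested, and 1 fell, 0 rose and 8 did not pass (limma, Benjamini-Hochberg over all genes). By the same test 9.17% of all genes were called lower and 9.29% higher, so the count of 1 lower was near that share. ELF4, a factor of lymphoid and endothelial cells, fell to 11.03, 11.4 and 11.3 FPKM in the libraries labelled DAB2IP O/E, against 14.6, 14.0 and 13.1 FPKM with empty vector. The log2 change of ELF4 was −0.28 (SE 0.05; limma adjusted p 0.0133). The limma adjusted p was 0.0565 when library 3 of those labelled DAB2IP O/E was left out and 0.0543 when the second empty vector library was. The count for these 9 genes was then 0 lower, and it was 3 lower without the third empty vector library. At an unadjusted p under 0.05, 5 of the 9 were lower and 0 higher, where 17.6% of all genes tested were lower and 17.6% higher. Limma-voom on the recovered reads called 5 lower and 0 higher, where it called 12.6% of all genes lower and 12.5% higher, 25.1% in all. Several others did not pass and had values below 0. GABPA, the DNA-binding subunit of a housekeeping activator, had log2 change −0.21 and adjusted p 0.0742, ELF2 had −0.16 and 0.0685, ELK4 had −0.19 and 0.0823, and the repressor ETV6 had −0.17 and 0.0879 (limma, Benjamini-Hochberg). In 6 of the 9 genes, ELF4, the 4 just named and ELK1, every library labelled DAB2IP O/E lay below every empty vector library, against 20.9% of all genes tested. The median log2 change of the 9 was −0.16, and that of all genes tested was −0.000416. The repressors ERF and ETV3 and the endothelial factor ERG had log2 changes of 0.01, 0.04 and 0.0034, and with library medians set equal ERF and ERG stood at −0.012 and −0.015. The remaining 6, ETV2, ETV3L, ETV7, SPDEF of secretory epithelia, and SPI1 and SPIB of blood cells, were below 1 FPKM on average.

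**Figure D3:**
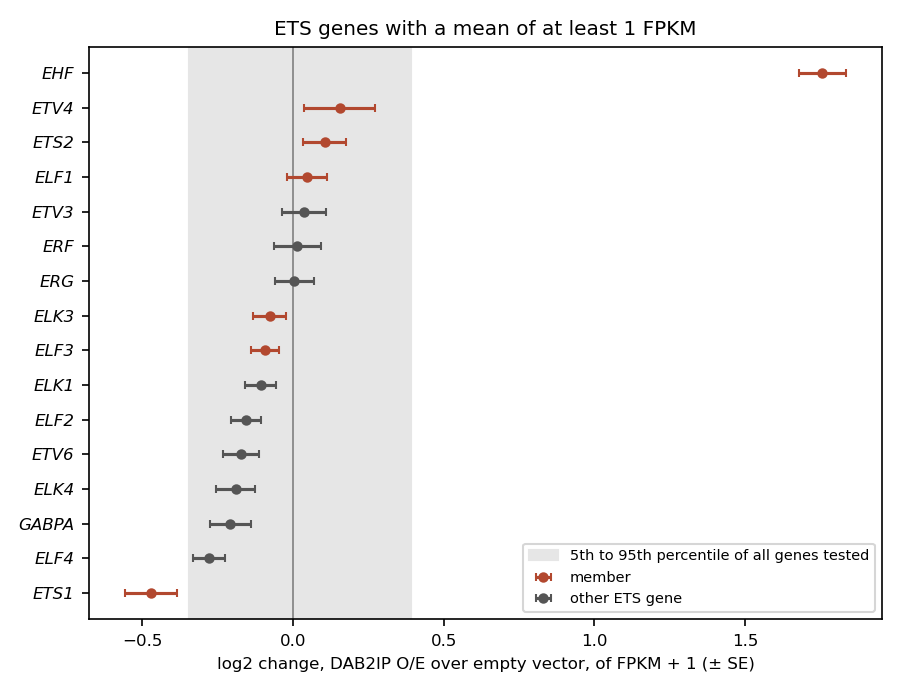
Log2 change of FPKM + 1, libraries labelled DAB2IP O/E over empty vector, for the 16 tested ETS genes, with bars of 1 SE; red are the 7 tested genes of the set and grey the 9 others, and the grey band spans the 5th to 95th percentile of all genes tested. EHF at 1.76 and ETS1 at −0.47 lie outside the band of −0.35 to 0.39.

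Of 15 tested partners and regulators of ETS proteins, 2 fell, 0 rose and 13 did not pass, with a median log2 change of −0.05, a share called near the 18.5% of all genes. At an unadjusted p under 0.05, 5 were lower and 1 higher, where 17.6% of all genes tested were lower and 17.6% higher. Limma-voom called 3 lower and 1 higher, where it called 12.6% of all genes lower and 12.5% higher, 25.1% in all. GABPB1, the partner subunit of GABPA, was at 2.57 ± 0.117 FPKM in the libraries labelled DAB2IP O/E and 3.17 ± 0.0431 FPKM with empty vector (SD, n = 3 each) (limma adjusted p 0.0327). CBFB, the partner of the RUNX factors that bind beside ETS1, was at 21.4 ± 0.165 and 24.5 ± 1.24 FPKM (limma adjusted p 0.0361). Both calls were fragile, since 1 of the 2 was lost without library 2 of those labelled DAB2IP O/E or the third empty vector library and both were lost without any of the other 4 libraries.

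Genes whose transcription follows ERK, as that of ETV4 and ETV5 does, were set beside the PEA3 values. Of 9 tested, 2 rose, 0 fell and 7 did not pass, with a median log2 change of 0.06, a share called near the 18.5% of all genes. At an unadjusted p under 0.05 the same counts held, 2 higher and 0 lower, where 17.6% of all genes were higher and 17.6% lower. Limma-voom called 3 higher and 0 lower, where it called 12.5% of all genes higher and 12.6% lower. DUSP5, an ERK phosphatase, rose to 5.63, 5.88 and 5.38 FPKM in the libraries labelled DAB2IP O/E, against 4.39, 3.55 and 3.25 FPKM with empty vector, with a log2 change of 0.49 and a limma adjusted p of 0.0133. SPRY2, a Sprouty inhibitor of receptor signalling, was at 2.53 ± 0.200 and 1.79 ± 0.190 FPKM (limma adjusted p 0.0246). The count became 3 without the first empty vector library, where DUSP6 passed (limma adjusted p 0.0428). DUSP6 was also among the 3 called by limma-voom. Its empty vector mean of 0.870 FPKM lay below the 1 FPKM set for testing, so it entered the tests only through the group where it was higher. The count became 1 without any other single library, each of which removed the SPRY2 call.

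Of 8 tested genes listed as textbook targets of ETS1 and ETS2, 1 rose, 1 fell and 6 did not pass, with a median log2 change of −0.02. The share called was not far from the 18.5% of all genes, 9.29% higher and 9.17% lower. MMP10, the protease stromelysin-2, rose to 5.77, 7.07 and 5.92 FPKM in the libraries labelled DAB2IP O/E, against 0.570, 1.65 and 2.53 FPKM with empty vector (limma adjusted p 0.00954). PLAUR, the urokinase receptor, was at 1.63 ± 0.139 and 2.35 ± 0.183 FPKM (limma adjusted p 0.0191). The PLAUR call was lost when the first library labelled DAB2IP O/E was left out (limma adjusted p 0.0533) and when the third was (0.0769). In the libraries labelled DAB2IP O/E, ETS1 was lower and EHF higher, and whether either bears on MMP10 or PLAUR was not tested. The list was written from general knowledge and says nothing of binding in these cells.

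Epithelial genes were listed because EHF and ELF3 belong to the epithelium-specific branch. Among 8 tested epithelial transcription factors, 3 were called higher and 1 lower, 4 did not pass, and the median log2 change was 0.17. Of all genes tested, 9.29% were called higher and 9.17% lower. The 3 were the grainyhead factors of epithelial junction genes: GRHL3 at 1.47 ± 0.139 and 0.635 ± 0.127 FPKM, GRHL2 at 11.03 ± 0.286 and 9.17 ± 0.331 FPKM, and GRHL1 at 4.23 ± 0.272 and 3.39 ± 0.0443 FPKM (libraries labelled DAB2IP O/E, then empty vector; SD, n = 3 each). The limma adjusted p was 0.00569 for GRHL3, 0.0161 for GRHL2 and 0.0265 for GRHL1. With a library left out, GRHL1 passed only without library 1 of those labelled DAB2IP O/E (limma adjusted p 0.0481). Without any other library its limma adjusted p was 0.0550 to 0.0880, and with no filter on low values 0.0509. GRHL2 did not pass without library 1 or 3 of those labelled DAB2IP O/E (limma adjusted p 0.0561 and 0.0672) or the second empty vector library (0.0666). KLF5, a Krüppel-like factor of proliferating epithelium, fell to 28.96 ± 1.22 FPKM, against 33.2 ± 1.22 FPKM with empty vector (limma adjusted p 0.0400). KLF5 passed in 1 of the 6 fits that left out a library, the one without the third empty vector library, with a limma adjusted p from 0.0430 to 0.116 over the 6, and it did not pass without a trend (0.0582) or without a filter on low values (0.0549). GRHL3 passed with any 1 library left out, but its empty vector mean of 0.635 FPKM lay below the 1 FPKM set for testing. It thus entered the test only through the group where it was higher, and the fits without a library kept the same genes. With no filter on low values GRHL3 passed (limma adjusted p 0.0132), and with a filter of 5 FPKM it was not tested. The count of 4 became 2 without the first or the second library labelled DAB2IP O/E or the first empty vector library. It became 1 without library 3 of those labelled DAB2IP O/E or the second empty vector library.

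Among 15 epithelial surface and junction genes, 7 were called higher and 0 lower, 8 did not pass, and the median log2 change was 0.23. Over all genes, 9.29% were called higher. At an unadjusted p under 0.05, 9 were higher and 1 lower, against 17.6% of all genes each way, and limma-voom called 8 higher and 0 lower, against 12.5% and 12.6% of all genes. Setting library medians equal left 6 higher and put 1 lower. ST14, the membrane protease matriptase, rose to 29.5 ± 2.24 FPKM in the libraries labelled DAB2IP O/E, against 21.8 ± 1.57 FPKM with empty vector (SD, n = 3 each; limma adjusted p 0.0107), and its inhibitors SPINT1 and SPINT2 had log2 changes of 0.33 and 0.23. CDH1, which encodes E-cadherin, was at 40.4 ± 1.04 and 39.9 ± 0.892 FPKM (limma adjusted p 0.798). SPINT1 and ST14 passed without any 1 library, and the count of 7 became 3 without library 1 of those labelled DAB2IP O/E, the third one or the second empty vector library, and 4 when the second library labelled DAB2IP O/E was left out. Beside these counts, the summed level of the 10 ovarian carcinoma markers was 1315 to 1397 FPKM in the libraries labelled DAB2IP O/E and 1000 to 1059 FPKM with empty vector. Of these markers the keratins KRT18, KRT8, KRT19 and KRT7 were called higher and WT1 lower, and 5 did not pass (PAX8, MUC16, EPCAM, MSLN and CDH1). The part of these markers in the result was not tested.

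Within 5 Mb of EHF, 38 other genes were tested, with a median log2 change of −0.05, 1 called higher and 7 lower. Of all genes tested, 9.29% were called higher and 9.17% lower. The 7 lay on the side of ELF5, at −2.68 to −1.70 Mb from the middle of EHF. They comprised RCN1, QSER1, WT1 and 4 entries named after WT1-AS, typed as antisense or miscellaneous RNA. WT1 and these 4 entries lie together, at −2.23 to −2.19 Mb, so the 7 are not separate places. WT1, a transcription factor gene used as an ovarian carcinoma marker, was at 18.1 ± 0.771 FPKM in the libraries labelled DAB2IP O/E and 25.0 ± 1.16 FPKM with empty vector (SD, n = 3 each). CAT, the catalase gene, was at 17.7 ± 0.546 FPKM in the libraries labelled DAB2IP O/E and 18.2 ± 1.46 FPKM with empty vector, APIP at 5.37 ± 0.221 and 5.57 ± 0.196 FPKM, and PDHX, a pyruvate dehydrogenase component, at 16.5 ± 0.854 and 16.0 ± 0.813 FPKM (SD, n = 3 each). The groups overlapped in each of these 3 genes. CD44, a cell surface receptor gene beyond PDHX, was at 0.6001, 0.589 and 0.509 FPKM in the libraries labelled DAB2IP O/E and 1.39, 0.649 and 0.663 FPKM with empty vector, below the level set for testing and with no overlap. Around ETS1, the median over 30 tested genes was −0.0060 on the log2 scale, 3 were called higher and 0 lower, while ETS1 itself was lower. Such medians around the 10 genes ran from −0.06 at ELK3 to 0.04 at ELF3.

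**Figure D4:**
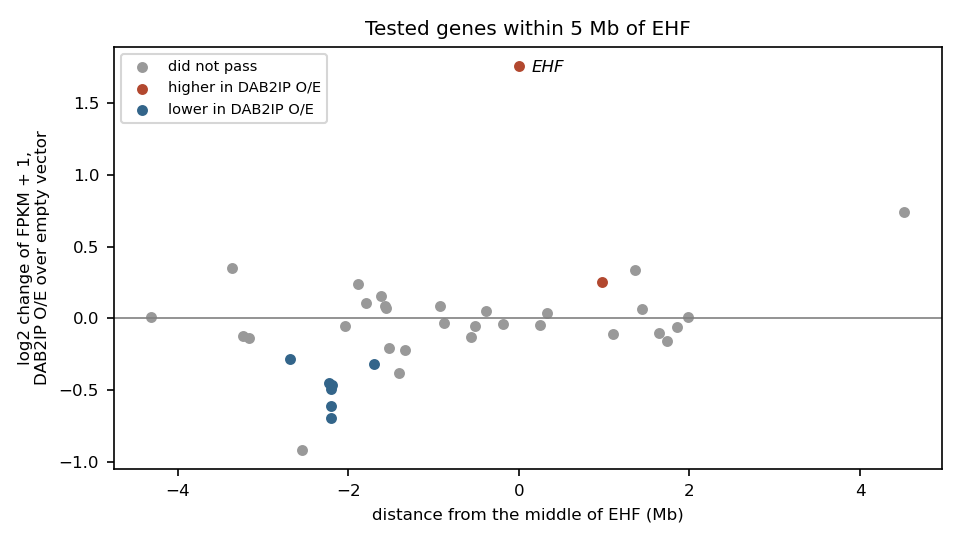
Log2 change of FPKM + 1, libraries labelled DAB2IP O/E over empty vector, of each tested gene within 5 Mb of EHF, against its distance from the middle of EHF in Mb; red points were called higher, blue lower, grey did not pass. EHF stands alone at 1.76 above neighbours with a median of −0.05.

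Over the 6 libraries, the tested protein-coding genes whose centred log2(FPKM + 1) profile lay nearest to EHF were LTBP1, ST6GALNAC5, GJA1, CA2, ERP27, LRRN1, FBN2 and FABP5. Their root mean square difference from EHF ran from 0.11 for LTBP1 to 0.22 for FABP5, among 11290 genes compared. LTBP1, which binds latent TGF-beta, was at 18.5 ± 1.31 FPKM in the libraries labelled DAB2IP O/E and 5.15 ± 0.109 FPKM with empty vector, close to the ratio of EHF. None of the 8 lies on chromosome 11. With 2 groups of 3 libraries, such nearness mainly reflects a like difference between the groups.

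Within groups, several of these factors varied with the replicate number of the library. In the first library of each group ETV4 was 1.27 times the mean of its group's other libraries with the label DAB2IP O/E and 1.37 times with empty vector, ETV5 1.26 and 1.87 times, and ETS2 1.124 and 1.14 times. ETS1 was 1.08 and 1.24 times those means. EHF went the other way in 1 group only, at 0.838 and 1.06 times. The same libraries had low early response genes: FOS, a target of serum response factor and its ETS partners, was at 2.87, 46.5 and 52.6 FPKM in the libraries labelled DAB2IP O/E and at 6.30, 33.9 and 30.3 FPKM with empty vector. EGR1, a like target, was at 8.11, 73.9 and 78.8 FPKM in the libraries labelled DAB2IP O/E and at 11.3, 51.1 and 47.4 FPKM with empty vector. Of 6 tested early genes of this list, 0 passed (limma, Benjamini-Hochberg), 0 had an unadjusted p under 0.05 and limma-voom called 0, while without library 1 of those labelled DAB2IP O/E 1 passed, MCL1 (limma adjusted p 0.0334). Over all genes tested, the first library was the highest in both groups for 15.9% and the lowest in both for 16.6%. Of the 7 tested genes of the set it was the highest in both groups for 3 and the lowest in both for 1. This pattern was chosen after its values were seen, and no test was made of it.

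**Figure D5:**
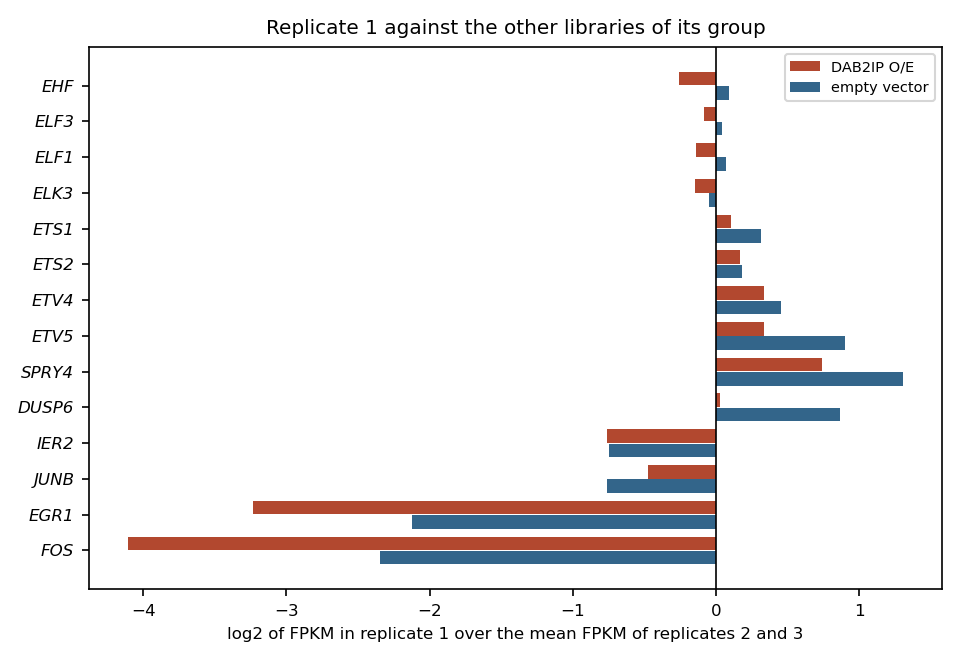
Log2 of FPKM in replicate 1 over the mean FPKM of replicates 2 and 3 of the same group, for 8 ETS genes of the set, the ERK-responsive SPRY4 and DUSP6, and the early genes IER2, JUNB, EGR1 and FOS; upper red bars are libraries labelled DAB2IP O/E and lower blue bars empty vector. FOS and EGR1 were lower in replicate 1 of both groups, and ETS1, ETS2, ETV4 and ETV5 higher.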

How the data were processed

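Poly-A RNA was made into stranded libraries and sequenced, per the labels' protocols. The authors deposited FPKM per gene and library, and a comparison table that holds, per the file headers, the normalised count averaged over all 6 libraries (a signal), the log2 fold change and its standard error, the statistic (a score), and p-values before and after adjustment. Its deposited log2 fold change had DAB2IP O/E in the denominator, which the FPKM showed, and its sign was turned here. DESeq2 1.12.4, R 3.3.1, Bowtie, TopHat2 2.1.1 and Trimmomatic 0.32, and the builds GRCh38.p5 and hg19 are listed, with no role for either build, per the submitters' processing notes. The counter, and whether it used strand, is not given in the sources used here. Of the gene identifiers, 25344 had the same version in GENCODE 29, all with the same coordinates.

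Groups were compared by limma-trend (limma 3.58.1, R 4.3.3, 2-sided) on log2(FPKM + 1), restricted to 14761 genes averaging 1 FPKM or more, with Benjamini-Hochberg adjustment over all of them, threshold 0.05. Log2 changes on that scale understate those of weak genes. A run on simulated libraries was used to check the fit. Whole reads, recovered from FPKM and the mean normalised count, came out whole to within 0.001 for 100% of values and gave the depths and the limma-voom alternative. No pair of libraries was a duplicate (chi-square per degree of freedom at least 3.61). Exact permutation tests cannot go below 0.1 with 3 against 3 and were not used. Named genes were the set, the other ETS genes, DAB2IP, up to 4 per list with the lowest adjusted p, and 8 nearest profiles; 1 listed gene is not reported here. Further genes (CDH1, the genes near EHF, SPRY4, FOS and EGR1) were added after their values were seen. The set and the lists were chosen with earlier results of these data known. Alternatives were other pseudocounts, filters and scalings, fits without or with a robust trend, a replicate block, limma-voom, the authors' deposited table, and leaving out each library.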

Additional observations from a re-analysis of the deposited data

How the results depend on the processing

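The higher level of EHF kept its direction under each alternative run, with a log2 change of 1.89 with a pseudocount of 0.1, 1.90 with limma-voom, 1.91 in the authors' deposited table, and 1.69 to 1.84 when 1 library was left out. The count of ETS genes of the set called was 1 to 2 with 1 library left out. Other ETS genes called numbered 2 with library medians set equal, 5 with limma-voom, 3 in the authors' deposited table, and 0 to 3 with 1 library left out. Genes called over all other lists numbered 17, against 10 with a filter of 5 FPKM and 6 to 14 with 1 library left out. Over all genes, 2725 were called, 971 to 2744 with 1 library left out (971 and 1309 when the third or the first library labelled DAB2IP O/E was left out, 1214 when the second empty vector library was), 3703 with limma-voom and 3850 in the authors' deposited table. Equal library medians split the calls into 1165 higher and 1686 lower, against 1371 and 1354.

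Values near 0 changed sign: ERF to −0.012 and ERG to −0.015 with library medians set equal, and with 1 library left out ERF ranged from −0.033 to 0.086, ERG from −0.014 to 0.031, ETV3 from −0.0083 to 0.11 and IER2 from −0.15 to 0.31. The cause was not tested. Same-numbered libraries of the groups had correlated deviations of 0.12, 0.10 and 0.06 over genes, and the main fit did not treat the numbers as pairs. Each library nevertheless correlated best with its own number, a hint from the data. In some genes the number mattered more: a replicate block lowered the SE of ETV4 from 0.12 to 0.06 and of IER2 from 0.24 to 0.04. The block raised the SE of EHF from 0.079 to 0.084. ETV4 did not pass with the block, and 0 of the 6 early genes did. With a replicate block 2393 genes were called, with 2 of the set and 1 other ETS gene, and the calls of GABPB1, CBFB, KLF5 and 1 epithelial surface gene were lost. Weak genes such as ELF5 and ETV1 are limited by depth.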
